A study of Homo sapiens with 8 samples.

Results

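Mitochondrial ribosomal proteins were taken as the protein-coding genes whose symbol is MRPL or MRPS followed by a number, together with DAP3, and without their pseudogenes. The rule found 79 genes among the 62826 listed, and all 79 passed the filter on low counts. By their place in the solved human mitoribosome 51 belong to the large subunit, 27 to the small subunit and 1, MRPS36, to neither. Their RNA was measured by sequencing in LUHMES-derived dopaminergic neurons, an established human mesencephalic line labelled as wild type and mid brain. All cells had been differentiated for 6 days with tetracycline (1 µg/mL), which switches off the immortalising gene, dbcAMP (1 mM) and GDNF (2 ng/mL). The treated cells then received antimycin A, which blocks respiratory complex III, at 25 µM and oligomycin, which blocks the ATP synthase, at 10 µM for 8 h, while the vehicle cells received DMSO. Each group has 4 libraries, numbered 2 to 5 by differentiation, from batches that the series text calls independent, each with 4 technical replicates. Both groups come from this single line.

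The mitochondrial ribosome translates the 13 mRNAs of mitochondrial DNA, all of which encode subunits of the respiratory chain and the ATP synthase. Its 2 rRNAs come from mitochondrial DNA, but every protein of it is encoded in the nucleus, made in the cytosol and imported. Some of these proteins have bacterial homologues, and others are found only in mitochondrial ribosomes, where they take the place of lost rRNA or form new contacts. Neurons depend strongly on respiration, and inherited defects of mitochondrial ribosomal proteins cause respiratory chain disease.

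Libraries held 93.8 to 109 M estimated reads in treated cells and 93.7 to 110.0 M estimated reads in vehicle cells. Levels are CPM, reads relative to the size of a library after scaling with TMM factors, and a fold change is the log2 of the level in treated cells over that in vehicle cells. Vehicle replicate 2 stood apart from the other vehicle libraries, with 11.5% of its reads on the 13 mRNAs of mitochondrial DNA, against 3.27 to 4.33% in the other vehicle libraries and 2.14 to 2.90% in treated ones. The main counts are therefore also given without it. Of the neuronal markers, TUBB3 reached 1441 CPM in treated and 1899 CPM in vehicle cells. The dopamine transporter gene SLC6A3 reached 570 CPM in treated and 589 CPM in vehicle cells, while LMX1B, another gene of dopaminergic neurons, did not exceed 0.178 CPM in any library and FOXA2 and ALDH1A1 were at or near 0. Of 10 neuronal markers 2 were higher and 6 lower, and their sum was 6011 to 6160 CPM in treated and 7095 to 8037 CPM in vehicle libraries. Of 10 dopaminergic markers 6 could be tested, of which 1 was higher and 2 lower, with a sum of 508 to 677 CPM in treated and 569 to 712 CPM in vehicle libraries. The higher one, TH, averaged 15.4 CPM in treated and 7.48 CPM in vehicle cells. The lower ones were DDC, at 0.239 CPM in treated and 0.495 CPM in vehicle cells, and EN1, at 16.8 and 29.3 CPM. SLC18A2 averaged 0.116 CPM in treated and 0.119 CPM in vehicle cells. Markers of dividing cells summed to 205 to 227 CPM in treated and 281 to 389 CPM in vehicle libraries, with 5 of 6 lower. Of 11 markers of glia and other cells, 6 could be tested, of which 2 were higher and 1 lower, and their sum was 52.1 to 60.3 CPM in treated and 34.1 to 44.2 CPM in vehicle libraries. Of these SLC1A3, a glutamate transporter gene, averaged 28.8 CPM in treated and 3.005 CPM in vehicle cells, while OLIG2 averaged 18.9 CPM in treated and 27.1 CPM in vehicle cells. GFAP, AIF1 and PTPRC were at or near 0 in both groups. The part of these cell markers in the results below was not tested, and in bulk RNA fewer cells of a type and less RNA per cell cannot be told apart.

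The promoters of the genes that the results turn on are shown first, since the members share short sequence motifs there. RefSeq promoters on the GRCh38.p14 build, 250 bases before to 50 bases after the start, were matched for 70 of the 79 genes. The letters searched on both strands were CCGGAAG (ETS factors), TGATGNAAN (the composite element bound by ATF4), and the longer motifs of YY1, whose letters are the capitals in MRPL36 and MRPS18B below, and of NRF1, and matches of different motifs overlapped in 0 of the 70 promoters. The sequences below run 5′ to 3′ along the gene, and capitals mark a match to one of these motifs. They are the promoters of the pair of genes lowered most (MRPS17 at chr7:55951627-55951926, plus strand, and MRPL24 at chr1:156741039-156741338, minus strand), of a gene lowered and the gene raised most that both carry the ETS letters (MRPL16 at chr11:59810729-59811028, minus strand, and MRPL48 at chr11:73787624-73787923, plus strand), and of a gene lowered and a gene raised that both carry the YY1 letters (MRPL36 at chr5:1799788-1800087, minus strand, and MRPS18B at chr6:30617590-30617889, plus strand).
MRPS17: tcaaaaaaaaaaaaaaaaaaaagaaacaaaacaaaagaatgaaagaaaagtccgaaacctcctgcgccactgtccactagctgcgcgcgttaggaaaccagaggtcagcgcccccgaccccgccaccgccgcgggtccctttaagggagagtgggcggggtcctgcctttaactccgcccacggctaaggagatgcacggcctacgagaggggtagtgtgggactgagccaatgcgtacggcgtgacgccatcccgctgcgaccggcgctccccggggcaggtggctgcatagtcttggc
MRPL24: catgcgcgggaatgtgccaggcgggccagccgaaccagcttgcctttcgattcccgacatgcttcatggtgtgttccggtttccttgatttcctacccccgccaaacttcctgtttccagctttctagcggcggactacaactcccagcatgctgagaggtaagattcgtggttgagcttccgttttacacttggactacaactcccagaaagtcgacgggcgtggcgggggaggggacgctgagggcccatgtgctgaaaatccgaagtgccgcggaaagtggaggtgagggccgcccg
MRPL16: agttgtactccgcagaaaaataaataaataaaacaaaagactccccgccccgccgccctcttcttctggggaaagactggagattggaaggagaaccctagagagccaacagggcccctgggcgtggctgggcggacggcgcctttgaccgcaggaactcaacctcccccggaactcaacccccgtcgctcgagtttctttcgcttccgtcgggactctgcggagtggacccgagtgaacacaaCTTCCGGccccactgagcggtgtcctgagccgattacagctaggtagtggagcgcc
MRPL48: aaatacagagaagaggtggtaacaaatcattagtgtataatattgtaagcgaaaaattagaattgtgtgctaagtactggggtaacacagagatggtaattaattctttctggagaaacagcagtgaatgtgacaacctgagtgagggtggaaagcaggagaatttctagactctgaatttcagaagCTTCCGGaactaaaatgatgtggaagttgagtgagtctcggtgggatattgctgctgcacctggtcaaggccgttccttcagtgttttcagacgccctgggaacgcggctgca
MRPL36: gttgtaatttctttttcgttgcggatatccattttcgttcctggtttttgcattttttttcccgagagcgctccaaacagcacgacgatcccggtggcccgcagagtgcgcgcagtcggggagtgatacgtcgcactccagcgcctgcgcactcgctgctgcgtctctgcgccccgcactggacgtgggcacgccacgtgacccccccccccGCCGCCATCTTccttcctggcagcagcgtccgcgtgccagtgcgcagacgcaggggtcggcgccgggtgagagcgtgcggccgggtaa
MRPS18B: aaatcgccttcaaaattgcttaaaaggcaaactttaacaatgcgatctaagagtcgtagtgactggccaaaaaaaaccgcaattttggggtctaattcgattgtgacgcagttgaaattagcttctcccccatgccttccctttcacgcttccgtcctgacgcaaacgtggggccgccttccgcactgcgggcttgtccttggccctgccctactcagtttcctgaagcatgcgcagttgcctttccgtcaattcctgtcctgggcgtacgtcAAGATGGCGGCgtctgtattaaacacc

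The ETS letters were in 29 of the 70 promoters (41.4%), against 10.3% of all 35116 promoters of the same length and 12.8% of those of coding genes. The YY1 letters were in 10 of 70 (14.3%), against 0.849% of all promoters and 1.18% of coding ones. NRF1 letters were in 1 of 70, against 0.755% of all promoters and 0.874% of coding ones. The ATF4 composite letters were in 1 of 70, against 3.61% and 2.69%. Only exact matches were counted, and the NRF1 string is longer than the ETS one, so near matches to NRF1 were missed. Genes with the ETS letters lay on both sides of the comparison below: 4 of the 11 matched genes that were higher, 8 of the 22 that were lower and 17 of the 37 without a call. The YY1 letters were in 2 of 11, 2 of 22 and 6 of 37 of these groups. A match describes the letters in this window only, and the fold changes had no part in the search. The windows printed for MRPL24 and MRPL48 lie wholly inside the annotated spans of these genes given below. For both genes the RefSeq start used here therefore differs from the start of that span.

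Blocking complex III and the ATP synthase for 8 h changed the mRNA of many mitochondrial ribosomal proteins, mostly by little and in both directions. Of the 79 genes, 12 were higher and 25 lower in treated cells at an adjusted p under 0.05 (edgeR's quasi-likelihood test with Benjamini-Hochberg adjustment over all 19785 genes tested), and 42 had no call. That is 46.8% of the members, against 57.9% of all genes tested (27.7% higher and 30.2% lower). Of the 14605 coding genes tested 59.3% were called, 4390 higher and 4264 lower. The median log2 fold change was -0.06 over the members, -0.02 over all genes tested and 0.02 over coding genes. The median size of a fold change was 0.204 for the members against 0.405 for all genes and 0.355 for coding genes. Only 9 members, 3 higher and 6 lower, were called and changed by 0.5 or more on the log2 scale, which is 11.4% against 38.1% of all genes tested. With library totals in place of TMM factors 9 were higher and 33 lower against a background of 57.1%, so the lower share of the members' calls was 78.6% in place of 67.6%, while the median of all genes tested stood at -0.12. Without vehicle replicate 2 the counts were 16 higher and 30 lower, against 62.9% of all genes tested. With an offset for transcript length they were 16 and 25, against 57.0%, and with DESeq2 17 and 25, against 58.3%.

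**Figure D1:**
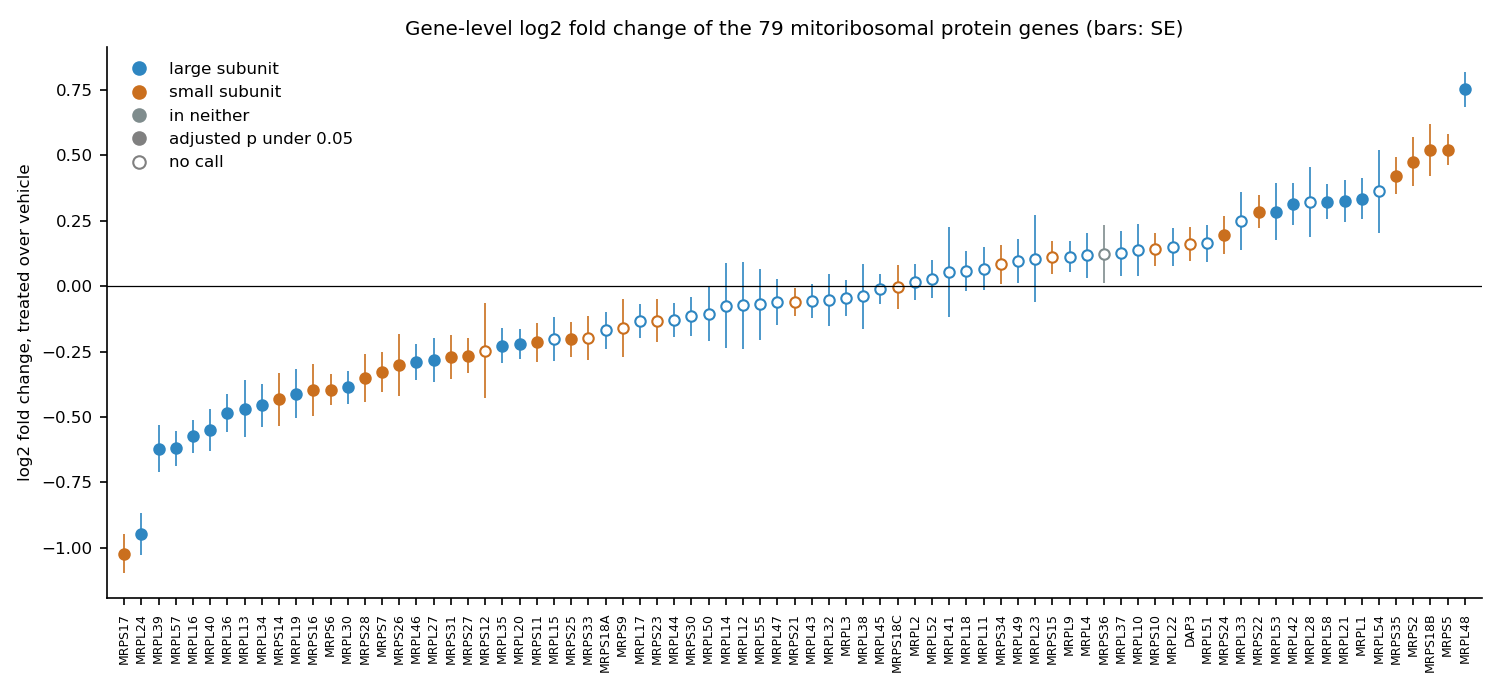
Log2 fold change, treated over vehicle (y axis), for the 79 mitochondrial ribosomal protein genes in order of size (x axis), with the SE as a bar, coloured by subunit, and filled where the adjusted p is under 0.05. Most genes lie between -0.5 and 0.5, MRPS17 (-1.02) and MRPL24 (-0.95) stand lowest, and MRPL48 (0.75) stands highest.

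The summed level of all members was 2601 ± 64.0 CPM in treated cells and 2675 ± 59.3 CPM in vehicle cells (SD, n = 4 each). As a share of all reads the members took 0.250, 0.242, 0.255 and 0.258% in treated libraries, against 0.252, 0.285, 0.286 and 0.285% in vehicle libraries. Vehicle replicate 2 lay within the range of the treated libraries, and the other vehicle libraries lay above them. Mean levels per length ran from 9.83 to 155 TPM in treated cells, with a median of 48.5, and from 20.8 to 139 TPM in vehicle cells, with a median of 52.1. MRPL51, MRPL42 and MRPS6 were among the most abundant on this scale, and MRPS17 was the least abundant in both groups, with 9.83 ± 0.391 TPM in treated and 20.8 ± 3.95 TPM in vehicle cells.

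Among the lowered genes 4 of the 5 with the smallest adjusted p encode large-subunit proteins, but the one that fell most belongs to the small subunit. MRPS17 (ENSG00000239789.6, chr7:55951819-55956501 on hg38), the counterpart of bacterial S17 that binds the small rRNA early in assembly, had 9.21, 8.82, 8.68 and 9.27 CPM in treated cells, against 17.4, 17.2, 18.5 and 20.0 CPM in vehicle cells. Every treated library lay below every vehicle library, with a log2 fold change of -1.02 ± 0.0741 (SE, adjusted p = 1.99e-06). MRPL24 (ENSG00000143314.12, chr1:156737303-156741590), the homologue of bacterial L24, had 4.30, 4.17, 4.43 and 4.66 CPM in treated cells, against 7.89, 8.73, 8.85 and 8.41 CPM in vehicle cells. The groups did not overlap, and the log2 fold change was -0.95 ± 0.0800 (SE, adjusted p = 5.33e-06). MRPL16 (ENSG00000166902.5, chr11:59806135-59810872), homologous to the bacterial L16 that sits near the peptidyl transferase centre, had 16.6, 16.1, 16.2 and 14.8 CPM in treated cells, against 23.8, 23.1, 24.4 and 23.7 CPM in vehicle cells. Its treated libraries also all lay below its vehicle libraries, at a log2 fold change of -0.57 ± 0.0638 (SE, adjusted p = 3.40e-05).

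MRPL57 and MRPL39 have no bacterial counterpart. MRPL57 (ENSG00000173141.5, chr13:21176645-21179084) had 17.1, 16.7, 15.97 and 16.1 CPM in treated cells, against 23.3, 26.1, 25.4 and 26.4 CPM in vehicle cells, with no overlap and a log2 fold change of -0.62 ± 0.0668 (SE, adjusted p = 2.81e-05). MRPL39 (ENSG00000154719.14, chr21:25585656-25607517) had 13.00, 12.1, 12.4 and 15.3 CPM in treated cells, against 20.3, 18.9, 21.3 and 20.7 CPM in vehicle cells. Treated replicate 5 was the highest of the treated libraries for MRPL39 and still lay below every vehicle library, and the log2 fold change was -0.62 ± 0.0886 (SE, adjusted p = 0.000187). MRPL40, a large-subunit protein specific to mitochondria, was lower at a log2 fold change of -0.55 (adjusted p = 0.000194), and MRPL36, homologous to bacterial L36, at a log2 fold change of -0.48 (adjusted p = 0.000229). The other 18 lowered genes ran from -0.47 for MRPL13 to -0.20 for MRPS25, and included the rRNA-binding proteins MRPS6 (-0.40), MRPS7 (-0.33) and MRPS16 (-0.40) of the small subunit and MRPL30 (-0.39) and MRPL34 (-0.46) of the large one.

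The raised genes were led by 1 large-subunit and 4 small-subunit proteins. MRPL48 (ENSG00000175581.14, chr11:73787316-73865133), a mitochondria-specific protein of the large subunit, had 19.1, 18.5, 19.1 and 20.5 CPM in treated cells, against 11.03, 11.3, 11.9 and 11.5 CPM in vehicle cells. Every treated library lay above every vehicle library, and the log2 fold change was 0.75 ± 0.0662 (SE, adjusted p = 7.08e-06). MRPS5 (ENSG00000144029.14, chr2:95087207-95149434), homologous to bacterial S5 at the mRNA entrance, had 76.0, 77.3, 80.6 and 75.7 CPM in treated cells, against 57.5, 51.9, 54.6 and 51.5 CPM in vehicle cells. The groups did not overlap at a log2 fold change of 0.52 ± 0.0598 (SE, adjusted p = 4.22e-05), although the protein-coding transcripts of this gene did not follow, as given below. MRPS35 (ENSG00000061794.13, chr12:27710773-27756295), specific to mitochondria, had 54.4, 55.1, 60.5 and 65.02 CPM in treated cells, against 44.1, 43.0, 44.3 and 43.8 CPM in vehicle cells. Its treated libraries spread more widely than its vehicle libraries and lay above all of them, at a log2 fold change of 0.42 ± 0.0699 (SE, adjusted p = 0.000494).

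MRPS18B (ENSG00000204568.12, chr6:30617709-30626395) had 38.2, 35.9, 39.5 and 38.5 CPM in treated cells, against 21.2, 27.7, 29.2 and 27.9 CPM in vehicle cells. Vehicle replicate 2 was the lowest library, and the log2 fold change was 0.52 ± 0.0985 (SE, adjusted p = 0.00116), or 0.43 without that library. MRPS2 (ENSG00000122140.13, chr9:135499984-135504673), homologous to bacterial S2, had 63.7, 59.6, 63.0 and 47.7 CPM in treated cells, against 39.2, 42.1, 43.8 and 43.2 CPM in vehicle cells. Treated replicate 5 was nearest to the vehicle libraries, and the log2 fold change was 0.48 ± 0.0937 (SE, adjusted p = 0.00151). MRPL58, a peptidyl-tRNA hydrolase that became part of the large subunit and frees stalled ribosomes, had 10.3, 10.5, 10.7 and 10.7 CPM in treated cells, against 8.80, 8.67, 8.10 and 8.09 CPM in vehicle cells, a rise of 0.32 ± 0.0686 (SE, adjusted p = 0.00239). The other 6 raised genes were MRPL1, MRPL21, MRPL42, MRPL53, MRPS22 and MRPS24, with log2 fold changes of 0.20 to 0.33. MRPL53 and MRPS24 each lost the call under 8 of 13 other gene-level settings, and MRPL21 lost it with library totals.

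**Figure D2:**
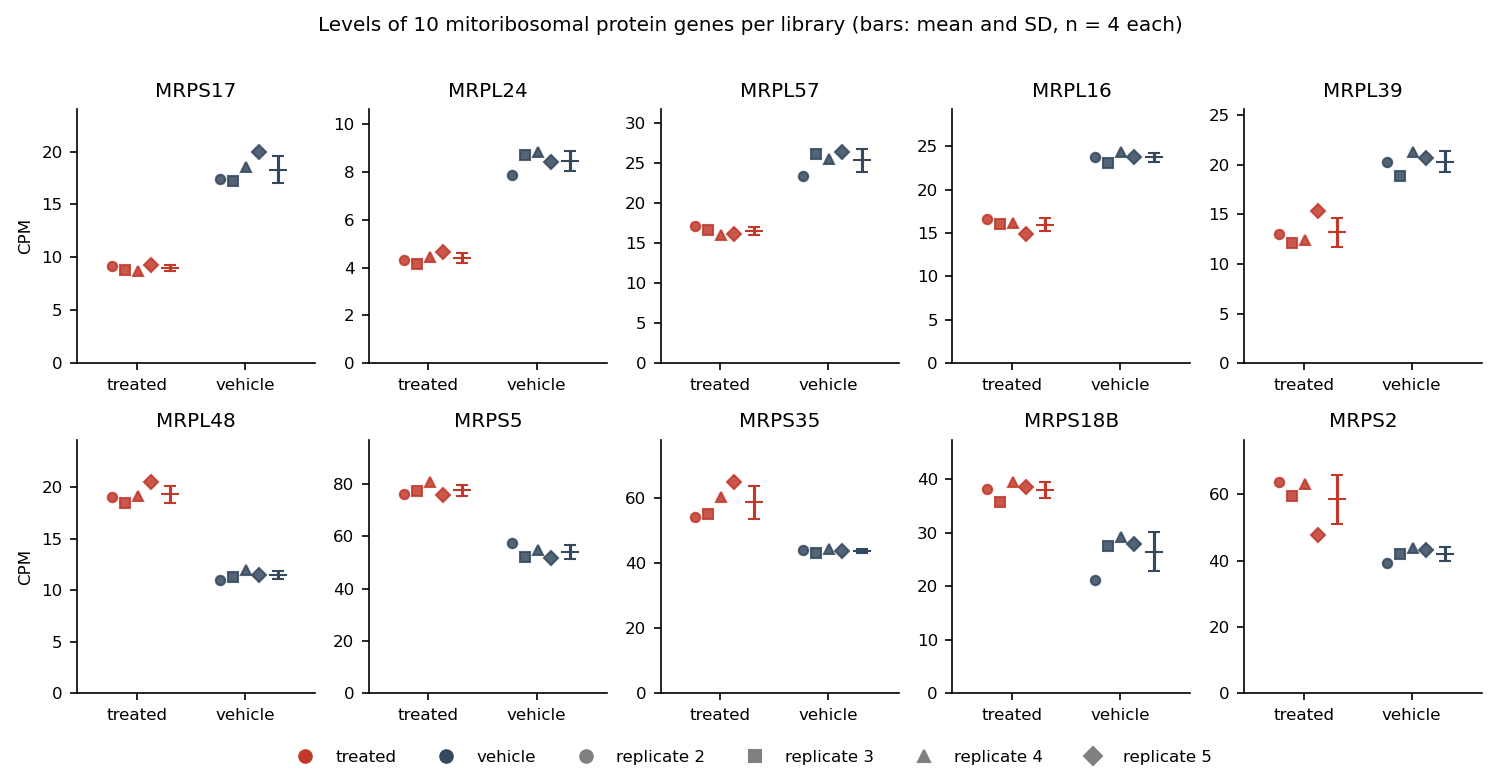
CPM per library (y axis, from 0) for the 5 lowered genes (upper row) and the 5 raised genes (lower row) with the smallest adjusted p, with treated libraries left of vehicle libraries in each panel, a symbol per replicate number, and the mean and SD beside them. The groups do not overlap in any of the 10 panels.

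The genes MRPS18A, MRPS18B and MRPS18C all descend from bacterial S18, but their proteins sit at different places, MRPS18A in the large subunit and the others in the small one. MRPS18A had 18.6, 17.8, 17.5 and 15.7 CPM in treated cells, against 20.3, 19.0, 19.8 and 19.0 CPM in vehicle cells, and MRPS18C had 12.9, 12.4, 13.7 and 15.4 CPM in treated cells, against 14.4, 13.1, 13.3 and 13.7 CPM in vehicle cells. Treated libraries of MRPS18A lay below all vehicle libraries without a call at a log2 fold change of -0.17 (adjusted p = 0.0653), while those of MRPS18C overlapped with the vehicle libraries at -0.0029 (adjusted p = 0.978). Only MRPS18B of these genes was called, and differences between them were not tested. MRPS30, named for the small subunit but placed in the large one, had 55.4, 58.7, 61.3 and 62.2 CPM in treated cells, against 72.0, 58.6, 62.7 and 64.2 CPM in vehicle cells and a log2 fold change of -0.12 (adjusted p = 0.212). MRPS36, now known as a part of the 2-oxoglutarate dehydrogenase complex, had 18.9, 18.1, 18.9 and 22.9 CPM in treated cells, against 14.6, 18.6, 19.1 and 19.9 CPM in vehicle cells, with overlapping groups at a log2 fold change of 0.12 (adjusted p = 0.370).

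DAP3, a GTP-binding protein of the small subunit, had 71.4, 68.2, 70.3 and 76.9 CPM in treated cells, against 59.0, 65.3, 66.1 and 65.8 CPM in vehicle cells. All treated libraries were above all vehicle libraries, at a log2 fold change of 0.16 (adjusted p = 0.0523), just short of a call. MRPL12, the stalk protein that recruits translation factors and also binds the mitochondrial RNA polymerase, had 25.2, 25.9, 25.6 and 24.4 CPM in treated cells, against 16.6, 28.1, 31.0 and 30.5 CPM in vehicle cells. Vehicle replicate 2 was far below the other vehicle libraries for MRPL12, and the log2 fold change was -0.07 (adjusted p = 0.726) with it and -0.25 (adjusted p = 0.00369) without it. Altogether 9 genes had a call only without that library, 5 lower (MRPL12, MRPL14, MRPL15, MRPL44 and MRPS12) and 4 higher (MRPL28, MRPL37, MRPL54 and MRPS15), and 0 lost one.

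Groups did not overlap in CPM for 40 of the 79 genes, 14 with every treated library above and 26 with every one below, against 53.4% of all genes tested (25.3% above and 28.2% below). Of the 37 called genes 35 did not overlap. The authors' deposited table of coding genes lists 78 of the 79, all but MRPL58, and holds 10 of them as higher and 23 as lower at a false discovery rate under 0.05, against 57.7% of all its genes (28.1% higher and 29.6% lower). Of the calls in the authors' deposited table, 31 match a call made here in direction, and 0 oppose one.

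Both subunits held raised and lowered genes. In the large subunit 6 of 51 genes were higher and 14 lower, which is 39.2% called against 57.9% of all genes tested, with a median log2 fold change of -0.05. In the small subunit 6 of 27 were higher and 11 lower, which is 63.0% called, with a median of -0.16, and 7 were lower without treated replicate 2. On protein-coding transcripts alone 48.1% of the small subunit was called, against 54.8% of all genes tested that way, as given below. Without vehicle replicate 2 the large subunit had 9 higher and 18 lower genes and the small one 7 and 12, against 62.9% of all genes tested. The difference of the medians, large minus small, was 0.105. Taken between libraries of the same number it was 0.125, 0.0876, 0.0299 and -0.0542 (SD 0.0781). The numbers were not taken to pair the samples, so this matching is arbitrary and its SD does not measure the spread of the difference of the medians. No test was made of this difference. The ratio of summed TPM, large over small, was 2.01, 2.00, 2.02 and 2.03 in treated cells, against 1.87, 1.98, 2.01 and 1.98 in vehicle cells. Vehicle replicate 2 gave the lowest ratio, and the highest vehicle value lay within the treated range. Among the 48 genes with bacterial homologues 6 were higher and 17 lower (47.9% called), and among the 30 specific to mitochondria 6 were higher and 8 lower (46.7% called), both below the 57.9% of all genes tested. Without vehicle replicate 2 these counts were 8 higher and 21 lower for the homologues and 8 higher and 9 lower for the specific genes.

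Reads of a gene can come from transcripts that do not encode its protein, so the comparison was repeated on the summed reads of the protein-coding transcripts. Here 9 members were higher and 23 lower, against 54.8% called of the 14135 genes tested this way. In the large subunit 5 were higher and 14 lower (37.3% called, median -0.04). In the small subunit 4 were higher and 9 lower (48.1% called, median -0.08). Of the 37 genes called on all reads, 31 were also called in the same direction, and 6 were not: MRPS5, MRPS22, MRPL42, MRPL53, MRPS11 and MRPS25. MRPS5 was the clearest of these, with a log2 fold change of 0.52 on all reads and 0.06 (adjusted p = 0.698) on its coding transcripts. Those transcripts had 27.8, 27.4, 27.6 and 24.7 CPM in treated cells, against 19.3, 28.3, 28.3 and 27.2 CPM in vehicle cells. Vehicle replicate 2 was the lowest library, and the groups overlapped. MRPS22, needed for small-subunit assembly, stood at 0.04 on coding transcripts against 0.28 on all reads. MRPS25 stood at 0.24 (adjusted p = 0.665) on coding transcripts against -0.20 on all reads. MRPL13 went the other way, with -0.64 on coding transcripts against -0.47 on all reads, and MRPL9 was called on coding transcripts only, at a log2 fold change of 0.16 (adjusted p = 0.0368). Transcript types come from GENCODE release 29, which does not hold every transcript of the files: it covers 22.1% of the reads of MRPS22, 50.8% of those of MRPS25, 81.5% of those of MRPS5 and 88.3% of those of MRPS27, and at least 95% for every other member.

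**Figure D3:**
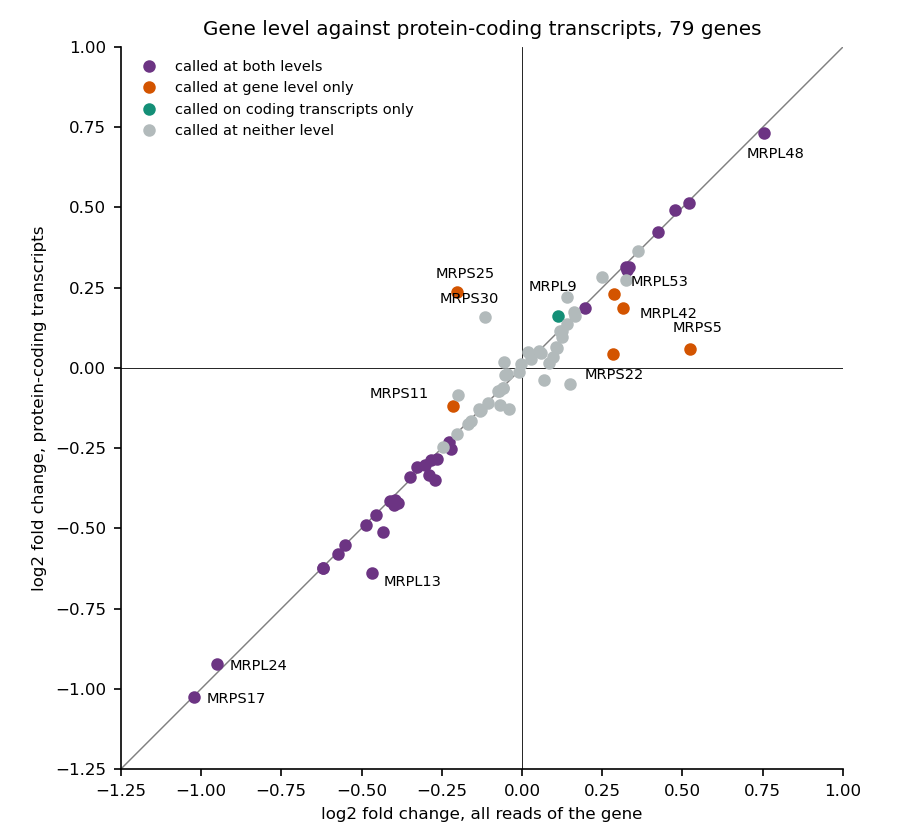
Log2 fold change, treated over vehicle, on all reads of a gene (x axis) and on its protein-coding transcripts (y axis) for the 79 genes, coloured by where each was called, with the line of equal values. Most points lie on the line, and MRPS5, MRPS22 and MRPS25 lie farthest from it among the genes called on all reads.

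At the level of single transcripts, 378 of the 523 annotated transcripts of the members had enough reads to be tested, and 37 were higher and 32 lower. That is 18.3% against 21.6% of all 85416 transcripts tested (11.1% higher and 10.5% lower). Of the 37 called genes 31 had a transcript called in the same direction, and 14 of the 42 genes without a call had a transcript that changed. Transcripts that the annotation marks for nonsense-mediated decay, the pathway that destroys mRNAs with early stop codons, were higher in 7 and lower in 1 of 29 tested cases (27.6% called). Over all genes 828 of 6388 such transcripts were higher and 321 lower (18.0% called). Transcripts with a retained intron were higher in 6 and lower in 2 of 74, against 1894 higher and 657 lower of 15385 over all genes. Protein-coding transcripts of the members were higher in 19 and lower in 26 of 229, against 4089 higher and 5437 lower of 38115 over all genes. Counts of called transcripts move with single libraries: 22, 23 and 18 were higher without treated replicates 2, 3 and 4 and 24 without vehicle replicate 3, while 17 were lower without treated replicate 3 and 50 without vehicle replicate 2. Shares over all transcripts are not given for these settings.

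MRPS5 had transcripts of both these types among those that rose. Its transcript MRPS5-203, with a retained intron, had 25.9, 26.2, 33.5 and 29.03 CPM in treated cells, against 12.2, 11.3, 14.1 and 14.2 CPM in vehicle cells, and rose by a log2 fold change of 1.15 ± 0.119 (SE, adjusted p = 0.000627). MRPS5-202, marked for nonsense-mediated decay, rose by a log2 fold change of 1.67 (adjusted p = 0.00497). The coding transcript MRPS5-201 had 22.0, 21.1, 21.7 and 20.0 CPM in treated cells, against 15.7, 23.4, 23.6 and 22.9 CPM in vehicle cells, with overlapping groups at a log2 fold change of -0.01 (adjusted p = 0.958). As a share of the gene's TPM, MRPS5-201 held 33.4, 31.6, 33.6 and 30.0% in treated cells, against 37.0, 48.4, 49.2 and 44.0% in vehicle cells. Of the other transcripts marked for decay, MRPL22-204 rose by a log2 fold change of 0.72 (adjusted p = 0.00880), MRPL42-205 by 0.56 (adjusted p = 0.0413) and MRPL48-211 by 2.13 (adjusted p = 0.00930), while MRPS25-202 was lower at a log2 fold change of -0.71 (adjusted p = 0.0388). In MRPS33, a small-subunit protein whose gene had no call at a log2 fold change of -0.20 (adjusted p = 0.0698), the coding transcript MRPS33-202 fell at a log2 fold change of -0.94 (adjusted p = 0.00106) and the retained-intron form MRPS33-208 at -1.12 (adjusted p = 0.00307).

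A change in the mix of a gene's transcripts was tested for 70 members that have at least 2 tested transcripts (limma on the log2 odds of each transcript against the rest of its gene, with Simes p-values per gene). This test called a changed mix in 22 of 70, against 24.8% of the 11746 genes tested, and 31 had an unadjusted p under 0.05. With the replicate number as a block it called 1 member. Of the 22 genes 12 were called at gene level and 10 were not. The planned test, edgeR's diffSpliceDGE with Simes p-values, called 4 members (MRPL1, MRPL13, MRPL48 and MRPS33), against 9.44% of all genes. All 4 are among the 22, but the members with the smallest p differ between the tests. The count of 22 moved with single libraries: it was 11, 10, 11 and 10 without treated replicates 2, 3, 4 and 5, and 12, 9 and 13 without vehicle replicates 3, 4 and 5, but 29 without vehicle replicate 2. Shares over all genes are not given for the block and for these settings, so the counts do not show whether the members moved more than other genes.

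MRPL4, homologous to bacterial L4, exchanged its transcripts without a call for the gene. The gene had 37.0, 36.8, 37.0 and 29.1 CPM in treated cells, against 32.3, 31.2, 33.0 and 32.4 CPM in vehicle cells, and treated replicate 5 was the lowest library for a log2 fold change of 0.12 (adjusted p = 0.260). Its coding transcript MRPL4-201 held, as a share of the gene's TPM, 47.7, 47.4, 45.7 and 43.3% in treated cells, against 78.9, 63.7, 64.8 and 66.5% in vehicle cells. The shorter coding transcript MRPL4-208 held 22.4, 23.0, 22.8 and 25.4% in treated cells, against 6.07, 9.16, 8.45 and 7.05% in vehicle cells. The groups of both were apart, MRPL4-208 rose by a log2 fold change of 1.67 ± 0.144 (SE, adjusted p = 0.000284) and MRPL4-201 fell at a log2 fold change of -0.50 (adjusted p = 0.0289), and the adjusted p of the mix was 0.00347. A further coding transcript, MRPL4-203, held 17.2 ± 0.629% in treated cells and 11.3 ± 0.919% in vehicle cells, and rose by a log2 fold change of 0.69 (adjusted p = 0.00852).

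MRPL24 had the smallest adjusted p of the mix (0.000695). Its minor coding transcript MRPL24-205 held 19.8, 20.4, 18.1 and 15.5% in treated cells, against 3.92, 4.34, 4.68 and 4.27% in vehicle cells. Every treated library lay far above the vehicle libraries, and MRPL24-205 rose by a log2 fold change of 1.02 (adjusted p = 0.00579) while the gene fell. The major transcripts MRPL24-201 and MRPL24-202 both fell, at a log2 fold change of -1.01 (adjusted p = 0.00432) and -1.66 (adjusted p = 0.00186). MRPL24-202 had a share of 25.8, 23.7, 28.98 and 25.3% in treated cells, against 26.8, 48.1, 44.1 and 36.2% in vehicle cells, where vehicle replicate 2 was at the level of the treated libraries. MRPL24-201 and MRPL24-202 have the same annotated length, so the division of reads between them is uncertain.

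MRPS35, MRPS31 and MRPL20 complete the 5 members with the smallest p of the mix. The 4 members that the planned diffSpliceDGE called are not among these 5. For MRPS35 the adjusted p of the mix was 0.00524. In MRPS31, a small-subunit protein specific to mitochondria, the coding transcript MRPS31-201 held 78.7, 80.3, 79.2 and 83.6% in treated cells, against 93.1, 89.9, 89.96 and 88.7% in vehicle cells. All treated libraries were below, the transcript was lower at a log2 fold change of -0.42 (adjusted p = 0.0298), and the noncoding MRPS31-204 rose by a log2 fold change of 0.76 (adjusted p = 0.0169), with an adjusted p of the mix of 0.00843. MRPL20, homologous to bacterial L20, kept most of its TPM in MRPL20-201, with 88.1 ± 1.72% in treated cells and 93.0 ± 1.50% in vehicle cells, and its minor coding transcript MRPL20-205 rose by a log2 fold change of 1.01 (adjusted p = 0.00658), with an adjusted p of the mix of 0.00483. In 6 members, MRPL13, MRPL20, MRPL24, MRPL4, MRPL49 and MRPS31, some transcripts were called higher and others lower.

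**Figure D4:**
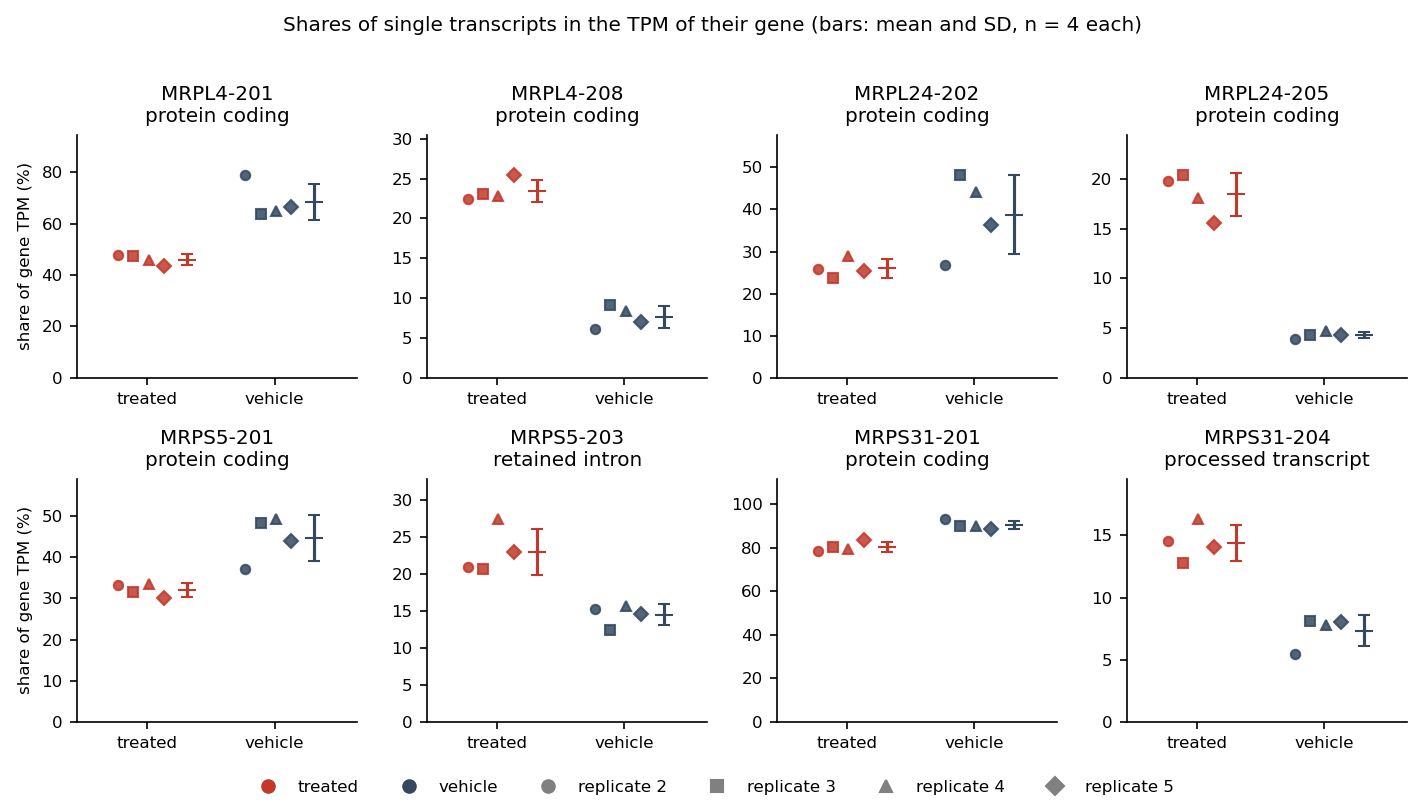
Share of a transcript in the TPM of its gene (y axis, percent, from 0) per library for the transcripts of MRPL4, MRPL24, MRPS5 and MRPS31 with the lowest and the highest log2 fold change among those holding at least 10% of the gene's TPM in a group, with treated libraries left of vehicle libraries, and the mean and SD beside them. Shares of MRPL4-208, MRPL24-205, MRPS5-203 and MRPS31-204 are higher in all treated libraries, and only MRPL24-202 shows overlap, through vehicle replicate 2.

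Many of these genes lie close to others. On the hg38 annotation 23 members overlap another gene on the same strand and 39 one on the opposite strand, and since no source here states a strand setting for the counting, their counts are less certain. Pseudogenes with a matching symbol held reads equal to 0.993 ± 0.0607% of those of the members in treated cells and 0.904 ± 0.0833% in vehicle cells. MRPS17 overlaps NIPSNAP2 on the same strand, whose log2 fold change was -0.08 (adjusted p = 0.361), and MRPS18B overlaps PPP1R10 on the opposite strand, which was higher at a log2 fold change of 0.41. Other members overlap genes on the same strand that changed. MRPS6 overlaps SLC5A3, which was lower at a log2 fold change of -1.23 with 66.7 CPM in treated and 156 CPM in vehicle cells, and MRPS16 overlaps DNAJC9, which was lower at a log2 fold change of -0.44. MRPS5, which was higher, overlaps ZNF514, which was lower at a log2 fold change of -0.41. The part of these neighbours in the members' values was not tested. A coding gene starting within 500 bases on the opposite strand was tested for 22 members, and 13 of these members had the sign of their neighbour. In 5 both were called, all with the same sign: MRPL27 with EME1 (-0.28 and -1.10), MRPL57 with SKA3 (-0.62 and -0.95), MRPS27 with PTCD2 (-0.27 and -0.68), and MRPL46 and MRPS11, which start back to back and are each other's neighbour (-0.29 and -0.22). The pair of MRPL46 and MRPS11 is counted once for each of its genes in all these counts. Log2 fold changes of member and neighbour had a Pearson r of 0.326 and a Spearman rho of 0.231. The same counts over other genes are not given, so these do not show whether the members differ from them.

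Proteins that build and run the mitoribosome were compared next, from lists chosen with earlier results of these data known. The share of genes called was 53.3 to 62.5% in the lists of assembly factors, translation factors, tRNA modification and synthetases, near the 57.9% of all genes tested. Of 32 assembly factors 4 were higher and 14 lower, with a median of -0.16. RBFA, which helps mature the small rRNA, averaged 14.7 ± 0.818 CPM in treated cells and 28.0 ± 2.03 CPM in vehicle cells with a log2 fold change of -0.93 ± 0.0755 (SE, adjusted p = 4.12e-06), and FASTKD2, needed for the large rRNA, averaged 34.1 ± 3.15 CPM in treated cells and 58.0 ± 3.46 CPM in vehicle cells, with -0.77 ± 0.0800 (SE, adjusted p = 2.23e-05). NSUN4, an rRNA methyltransferase, rose by a log2 fold change of 0.31 (adjusted p = 0.00106), and NGRN, which also acts on the large rRNA, by 0.25 (adjusted p = 0.00352), without a call for NGRN under library totals (0.15, adjusted p = 0.0959). Among 4 subunit proteins with other symbols only PTCD3 was called, at a log2 fold change of -0.22 (adjusted p = 0.0148). Of 16 translation factors 3 were higher and 7 lower (median -0.17). MTRFR, a ribosome rescue factor, rose by a log2 fold change of 0.68 (adjusted p = 3.23e-05), and MRRF, the recycling factor, by 0.20 (adjusted p = 0.0157), without a call for MRRF under library totals (adjusted p = 0.229), while GFM2, which acts with it, fell at a log2 fold change of -0.60 (adjusted p = 2.24e-05) and the elongation factor GUF1 fell at a log2 fold change of -0.71 (adjusted p = 2.42e-05). Over all these lists and the next 2 together 13 genes were higher and 36 lower. Without vehicle replicate 2 they were 14 and 45, where 62.9% of all genes tested were called. With library totals they were 7 and 42, where 57.1% of all genes tested were called.

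Of 15 genes of mitochondrial tRNA processing and modification 3 were higher and 5 lower (median 0.05). MTO1, which modifies the wobble base of several tRNAs, had 41.6, 41.2, 41.5 and 43.6 CPM in treated cells, against 18.8, 20.0, 19.1 and 19.5 CPM in vehicle cells. The groups were far apart, with a log2 fold change of 1.12 ± 0.0582 (SE, adjusted p = 2.39e-07), and TRIT1, which modifies the base next to the anticodon, rose by a log2 fold change of 0.67 (adjusted p = 1.51e-05). The tRNA-cutting nuclease PRORP fell at a log2 fold change of -0.63 (adjusted p = 1.72e-05) and ELAC2 fell at a log2 fold change of -0.53 (adjusted p = 7.51e-05). Of 20 mitochondrial aminoacyl-tRNA synthetases and related enzymes 3 were higher and 9 lower (median -0.21). TARS2, the enzyme for threonine, averaged 18.4 ± 0.677 CPM in treated cells and 34.0 ± 2.19 CPM in vehicle cells and fell at a log2 fold change of -0.89 (adjusted p = 3.20e-06). QRSL1, a part of the enzyme that makes glutamine-charged tRNA, rose by a log2 fold change of 0.57 (adjusted p = 9.44e-05), and EARS2, for glutamate, by 0.33 (adjusted p = 0.00697), without a call for EARS2 under library totals (adjusted p = 0.0685).

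The rRNAs of the mitoribosome, encoded by mitochondrial DNA, were higher in treated cells. MT-RNR1, the rRNA of the small subunit, had 8090, 7823, 6017 and 5524 CPM in treated cells, against 1751, 716, 619 and 542 CPM in vehicle cells, and rose by a log2 fold change of 2.92 ± 0.359 (SE, adjusted p = 6.88e-05). MT-RNR2, the rRNA of the large subunit, had 31454, 30973, 24182 and 21994 CPM in treated cells, against 17782, 7637, 6649 and 5439 CPM in vehicle cells, and rose by a log2 fold change of 1.53 ± 0.333 (SE, adjusted p = 0.00273). Vehicle replicate 2 was the highest vehicle library for both and still below every treated library, and without it the changes were 3.45 and 2.04. The libraries were made with an mRNA kit, which captures RNA by its poly(A) tail, so these values describe captured rRNA.

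**Figure D5:**
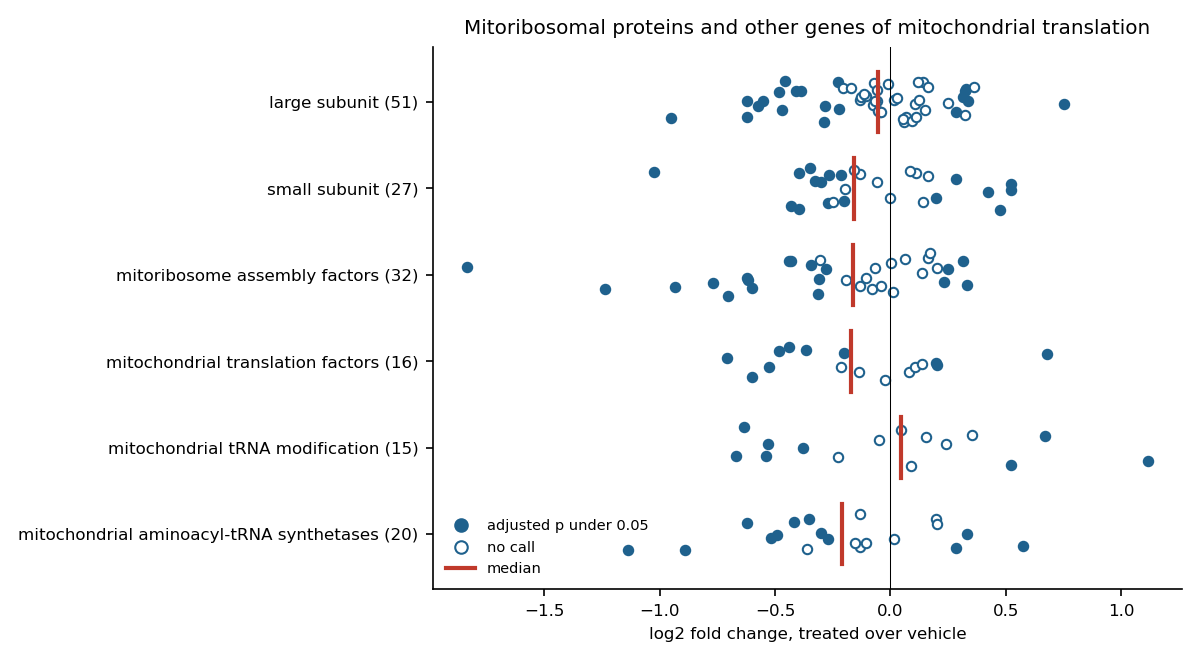
Log2 fold change, treated over vehicle (x axis), for each tested gene of the large and small subunit and of 4 lists of mitochondrial translation (y axis, number of genes in brackets), filled where the adjusted p is under 0.05, with the median as a red line. The medians lie between -0.21 and 0.05, and each group holds genes on both sides of 0.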

How the data were processed

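RNA from 4 treated and 4 vehicle batches of LUHMES-derived neurons was isolated on silica columns and turned into mRNA libraries, per the labels' protocols. The authors deposited estimated counts and TPM per gene and per transcript for each library, per the file headers. HISAT2, SAMtools, StringTie and hg38 are named in the submitters' processing notes, without versions. No source used here names the quantifier or its strand setting. The authors' deposited table of coding genes gives log2 fold changes, p-values, a false discovery rate and a normalised signal per library, per the file headers, and how that signal was scaled is not given.

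Members and gene lists were chosen with earlier results of these data known. Estimated counts were rounded to whole numbers and tested with edgeR 4.0.16 (quasi-likelihood test, TMM factors, filterByExpr, Benjamini-Hochberg adjustment over all features, threshold 0.05) in R 4.3.3. Transcripts needed 10 reads in 4 libraries. The SE is the size of the log2 fold change over the square root of F. Transcript mix was to be tested with edgeR's diffSpliceDGE. On simulated data 103 genes had a transcript changed by 1 and 97 by 3 log2 units, and 83.0% of its calls over 11746 genes were false. The reported test, chosen after seeing the data, is limma 3.58.1 on log2 odds with a pseudocount of 0.5, where 8.57% of calls were false and 33.0% of changes of 3 log2 units and 0% of changes of 1 were recovered. In the simulated gene comparison over 19785 genes, 93 genes changed by 0.5 and 107 by 1 on the log2 scale, of which 26.9% and 77.6% were recovered. Far fewer features changed in these simulations than were called in the data. Shares of false calls and of recovery depend on that number, so the simulated shares do not carry over to the data. A member had 375 to 14466 reads in a library. Values per library are given for the 5 members with the smallest adjusted p in each direction and in transcript mix and for MRPS18A, MRPS18B, MRPS18C, MRPS30, MRPS36, DAP3, MRPL12 and MRPL58, and for partner lists up to 2 rising and 2 falling genes are named, some results under this rule not being reported here. MRPL40, MRPL36 and the transcripts of other genes were named after their values were seen. Alternatives were DESeq2 1.42.0, library totals, no filter, a length offset, a replicate block and leaving out each library. Types and positions are from GENCODE release 29 on hg38.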

Additional observations from a re-analysis of the deposited data

Results flagged for a closer look

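In 16 of 98 groups of 4 values 1 library lay far from the others by Dixon's criterion, which chance alone gives in about 5% of groups. The values below share libraries, so they are not independent of each other.

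Treated replicate 5 stood apart for 4 genes. MRPL4 had 29.1 CPM there, against 36.8 to 37.0 CPM in the other treated libraries. MRPS36 had 22.9 CPM against 18.1 to 18.9 CPM, GFM2 had 52.7 CPM against 46.1 to 47.0 CPM, and MTO1 had 43.6 CPM against 41.2 to 41.6 CPM.

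Vehicle replicate 2 stood apart for the other 12 values. DAP3 had 59.0 CPM there, against 65.3 to 66.1 CPM in the other vehicle libraries, and PTCD3 had 70.7 CPM against 79.9 to 81.8 CPM. MRPS31 was higher there, at 34.0 CPM against 27.8 to 28.3 CPM, as were RBFA at 31.1 CPM against 26.9 to 27.3 CPM, NSUN4 at 29.5 CPM against 28.4 to 28.5 CPM and MT-RNR1 at 1751 CPM against 542 to 716 CPM. All members together took 0.252% of its reads, against 0.285 to 0.286% in the other vehicle libraries, and 3555 TPM, against 4856 to 5056 TPM. The large subunit took 0.149% of reads and 2303 TPM, against 0.169 to 0.171% and 3199 to 3323 TPM. The small subunit took 0.102% of reads and 1230 TPM, against 0.112 to 0.114% and 1613 to 1682 TPM. That library also held 11.5% of its reads on mRNAs of mitochondrial DNA, and the part of that share in these values was not tested.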

How the results depend on the processing

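Of the 37 called genes 28 kept their call under all 13 other gene-level settings, 9 lost it under at least 1, and 0 changed sign. MRPL53, MRPS24 and MRPS26 each lost it under 8 settings, and MRPS11, MRPS25 and MRPS31 each under 3. MRPL35 lost it under 2, and MRPL21 and MRPL27 each under 1. With DESeq2, 15 genes were higher on coding transcripts and 58 transcripts were lower, without a share over all features at hand. Library totals left 7 higher genes in the lists of translation partners. The planned diffSpliceDGE called 4 members. The cause of these moves was not tested.

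Leaving out 1 library at a time gave 10 to 16 higher and 21 to 30 lower genes, 7 to 13 and 20 to 28 on coding transcripts, 18 to 47 higher and 17 to 50 lower transcripts, and 9 to 29 members with a changed mix. The large subunit had 5 to 9 higher and 13 to 18 lower genes, the small one 5 to 7 and 7 to 12. Their difference of medians was 0.0754 to 0.168. Partner lists had 10 to 16 higher and 31 to 45 lower genes. Shares over all features are not given for these ranges.

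Labels do not say that equal replicate numbers mark a shared batch. The deviations of equally numbered libraries correlated at -0.0797, 0.0316, 0.0252 and -0.00136 over all genes, so the numbers were not taken to pair the samples. Over the members alone they correlated at -0.438, 0.359, 0.221 and -0.279, with both signs. With the replicate number as a block 11 genes were higher and 24 lower (54.4% of all genes called), 14 transcripts were higher and 14 lower, and 1 member had a changed mix. For the transcripts and the mix the shares over all features under the block are not given, so these counts do not show whether the members moved more than others. On simulated data over 85413 transcripts, 103 changed by 1 and 97 by 3 log2 units, of which 3.88% and 44.3% were recovered.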
